A study of Danio rerio with 12 samples.

Results

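The genes described here are molecular chaperones of the zebrafish embryo (Danio rerio), chosen by name from a table of normalized expression. A gene was a member when its symbol began with hsp or dnaj, when it named a subunit from cct2 to cct8, or when it was tcp1, and genes beginning with hspg were left out. This rule found 75 of 14134 genes. They fell into 28 hsp-named genes, 40 J-domain genes and 7 subunits of the cytosolic chaperonin CCT. By gene ID, 73 matched a RefSeq entry of the assembly GRCz12tu, while dnaja2 and dnaja2l carry no ID in the table. Whole embryos, labelled as healthy and GFP positive, were freed from the chorion and treated from 23 hours after fertilization. The groups were 50 µM empagliflozin, 50 µM canagliflozin and the vehicle DMSO as control, with 4 libraries each. RNA was taken at 27 hours from a pool of 5 embryos per library. The line that carries GFP and the clutches are not named in the labels, so p-values measure the spread between pools that may share parents.

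Chaperones bind proteins that are not yet folded and either hold them or help them fold. HSP70 proteins do this in cycles of ATP hydrolysis that J-domain proteins start and exchange factors end, and HSP90 takes over many clients from HSP70. CCT is a closed ring that folds actin and tubulin, hspd1 and hspe1 form the related chamber of mitochondria, and small heat shock proteins hold unfolding proteins without ATP. Cells raise the heat-inducible members within minutes to hours of proteotoxic stress through the factor HSF1, while constitutive members are abundant in growing embryos. Empagliflozin and canagliflozin are C-glucosides that block the renal glucose transporter SGLT2; canagliflozin carries a thiophene ring in a place where empagliflozin has a benzene ring.

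Libraries held 16149682 to 27842375 reads over the 14134 genes, and values are read counts relative to library size, in units of CPM, scaled between libraries by the authors. On the leading axis of variation over all genes tested, which held 41.8% of the variance, the empagliflozin libraries scored 15.6 to 18.6. Canagliflozin 4 scored 5.95 and control 4 scored 7.52, and the other libraries of both groups scored -17.9 to -8.92. On this axis, these 2 libraries therefore stand between their own groups and empagliflozin. On the second axis, with 15.4% of the variance, canagliflozin 4 scored -24.5 and control 4 scored -7.18. The other libraries scored -2.84 to 10.8 there. Results are also given without these 2 libraries. Since they were left out for lying towards empagliflozin, differences of genes that follow the leading axis grow by construction in those fits. The p-values there are descriptions and no independent support. Genes were tested with limma on log2(CPM + 1) over 11964 genes with a mean of at least 1 CPM, and a gene was called at a Benjamini-Hochberg adjusted p under 0.05. Log2 differences on this scale understate changes of genes with few CPM. Because whole embryos were pooled, fewer cells of a type and less RNA per cell cannot be told apart.

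All but 1 of the 75 chaperone genes passed the minimum; hspb15, a small heat shock gene, averaged 0.226 CPM and was not tested. In empagliflozin against control, 5 of 74 chaperone genes passed the test, or 6.76%, beside 13.3% of all genes tested. The 1 gene that rose was dnajb11, and the 4 that fell were cct5, cct7, hspb9 and dnaja3a; of all genes, 6.87% rose and 6.41% fell. The libraries of the groups did not overlap in 12 chaperone genes, or 2 above and 10 below control, beside 19.1% of all genes in either direction. In canagliflozin against control, 0 of 74 passed in limma, beside 0% of all genes. Of these 74, 6 had an unadjusted p under 0.05, beside 7.73% of all genes. EdgeR called 0, beside 0% of all genes, and DESeq2 called 1, or 1.35% beside 0.201% of all genes. The libraries did not overlap in 4 chaperone genes, beside 4.49% of all genes. In empagliflozin against canagliflozin, 19 of 74 passed, 8 higher and 11 lower, or 25.7% beside 25.5% of all genes, of which 12.4% were higher and 13.1% lower. The libraries did not overlap in 20, or 7 above and 13 below, beside 25.6% of all genes in either direction. The share of chaperone genes was thus below that of all genes in empagliflozin against control and close to it in empagliflozin against canagliflozin. The gap against control was narrower or absent in some other settings: at an adjusted p threshold of 0.1 the shares were 24.3% and 24%, in DESeq2 16.2% and 17.3%, and after quantile normalization 13.5% and 14.3%. The 2 compounds formed 1 pair, compared at the same dose and time.

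By family, calls in CCT and hsp-named genes were mostly lower in empagliflozin and those in J-domain genes mostly higher against canagliflozin; no test compared the families. In empagliflozin against canagliflozin, 5 of 7 CCT genes fell and 0 rose, with a median log2 difference of -0.24. Of 40 J-domain genes, 7 rose and 2 fell, with a median of 0.06. Of 27 hsp-named genes tested, 1 rose and 4 fell, with a median of -0.05. Of all genes tested, 12.4% passed as higher and 13.1% as lower, and the median was 0.01. In empagliflozin against control, the counts were 0 higher and 2 lower for CCT, 1 and 1 for J-domain genes, and 0 and 1 for hsp-named genes. Of all genes, 6.87% passed as higher and 6.41% as lower in that comparison. The medians there were -0.19 for CCT, 0.07 for J-domain genes and -0.09 for hsp-named genes, beside -0.00 for all genes. Without control 4 and canagliflozin 4, 25 of 74 chaperone genes passed in empagliflozin against control, 12 higher and 13 lower, beside 35.5% of all genes. In the same setting, 32 passed in empagliflozin against canagliflozin, 16 in each direction, beside 40.8% of all genes, and 0 in canagliflozin against control. Of the 25 called against control, CCT had 0 higher and 4 lower, J-domain genes 9 higher and 4 lower, and hsp-named genes 3 higher and 5 lower.

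**Figure D1:**
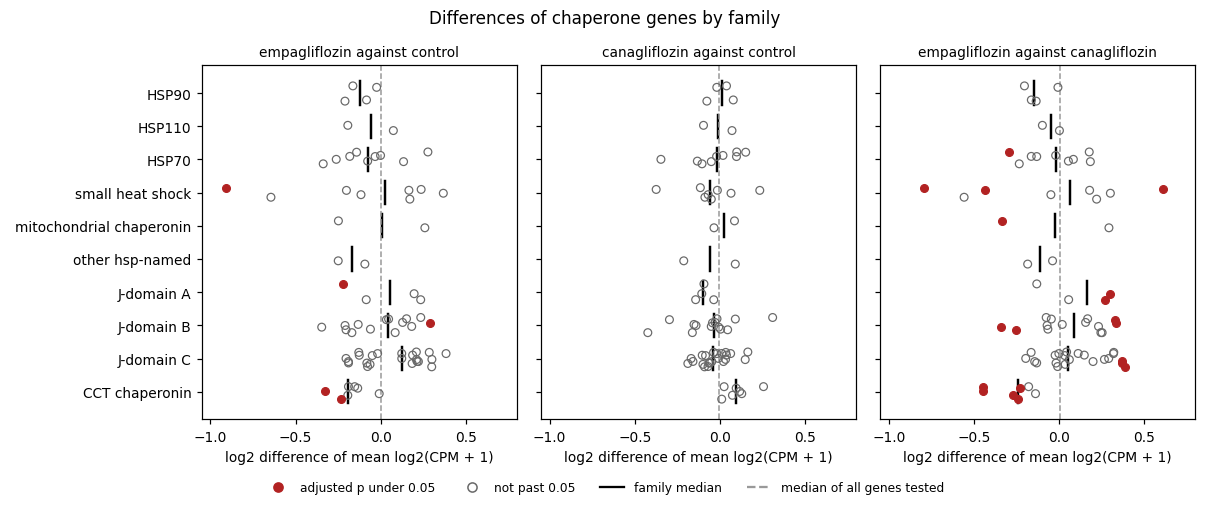
Log2 difference of mean log2(CPM + 1) for each of 74 chaperone genes by family, in 3 panels, 1 for each comparison; filled red points have an adjusted p under 0.05, open points do not, black bars are family medians and the dashed line is the median of all genes tested. In empagliflozin against canagliflozin, all 7 CCT points lie left of the line and 5 are red, while the 7 red J-domain points on the right outnumber the 2 on the left.

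Summed transcripts of the CCT ring were lower in empagliflozin than in both other groups, while only cct5 and cct7 passed against control. Neither of these calls was kept in all 25 alternatives. Summed over the 7 subunits in the table, CCT made up 2567 to 2977 CPM in empagliflozin libraries, 3199 to 3509 CPM in canagliflozin libraries and 3048 to 3282 CPM in control libraries. The empagliflozin sums thus lay below every sum of the other groups. All 7 means were also higher in canagliflozin than in control, although no subunit passed there in limma. The rule found no gene named cct2, so this subunit was not analysed here.

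The subunit gene cct4 (Entrez 393555) had 336, 308, 296 and 319 CPM in empagliflozin, 455, 427, 418 and 417 CPM in canagliflozin, and 345, 358, 376 and 357 CPM in control. No library of any group overlapped with another group: canagliflozin was highest, control lay between, and empagliflozin was lowest. It fell by 0.45 on the log2 scale in empagliflozin against canagliflozin, or 1.36-fold (95% interval -0.58 to -0.31, adjusted p = 0.00042 in limma). Against control it differed by -0.19 in empagliflozin (adjusted p = 0.0536) and by 0.26 in canagliflozin (interval 0.13 to 0.39, adjusted p = 0.487), and neither passed in limma. DESeq2 called both (adjusted p 0.0154 and 0.0158).

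The gene cct5 (Entrez 322258) had 373, 369.8, 340.5 and 327 CPM in empagliflozin, 513, 496, 509.6 and 408 CPM in canagliflozin, and 449.6, 479, 459.8 and 387 CPM in control. Empagliflozin lay below both other groups, and canagliflozin 4 and control 4 were the lowest of their groups. It fell in both comparisons, by 0.45 against canagliflozin (adjusted p = 0.00269) and by 0.33 against control (adjusted p = 0.0273). The call against control was lost when any of empagliflozin 2, 3 and 4 or control 1, 2 and 3 was left out (adjusted p 0.0534 to 0.0879).

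The gene cct7 (Entrez 192324) had 445, 426, 420.2 and 392 CPM in empagliflozin, 528, 514, 495 and 455 CPM in canagliflozin, and 485, 495, 503 and 492 CPM in control. It fell by 0.24 against canagliflozin (adjusted p = 0.0138) and by 0.23 against control (adjusted p = 0.0335), and empagliflozin again lay below every library of the other groups. The same 6 libraries decided the call against control (adjusted p 0.0661 to 0.0931 without any of them), and canagliflozin 1 decided the call against canagliflozin (0.0517 without it). Without a variance trend, the call against control was lost as well. In RefSeq, cct7 lies next to hspa12b, a divergent HSP70 gene, which had an opposite, uncalled value in empagliflozin against control (0.28, interval -0.00 to 0.56).

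The means of the remaining subunits were lower in empagliflozin than in canagliflozin as well. The gene cct6a (Entrez 116994) had 546, 539, 518 and 479 CPM in empagliflozin, 627, 638, 636 and 604 CPM in canagliflozin, and 578, 609.6, 602 and 589 CPM in control. It fell against canagliflozin by 0.27 (adjusted p = 0.00655), and against control it differed by -0.19 with an adjusted p of 0.0501, although the libraries did not overlap. The founding subunit tcp1 (Entrez 30477) had 382, 373, 368 and 332 CPM in empagliflozin, 441, 429, 429 and 408 CPM in canagliflozin, and 375, 393, 429 and 402 CPM in control. It fell against canagliflozin by 0.23 (adjusted p = 0.0181; 0.0568 without canagliflozin 1) and overlapped with control. In cct3, empagliflozin had 409.8 to 503 CPM, canagliflozin 508 to 568 CPM and control 485 to 555 CPM. Its difference against canagliflozin was -0.18 (adjusted p = 0.0929), and without control 4 and canagliflozin 4 it was -0.20 (adjusted p = 0.0351). The subunit cct8 had 308 to 391 CPM in empagliflozin, 377 to 400.2 CPM in canagliflozin and 331 to 374 CPM in control. The difference of cct8 from control in empagliflozin was -0.01 (interval -0.17 to 0.15), so a fall of the size of cct5 lay outside its interval.

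**Figure D2:**
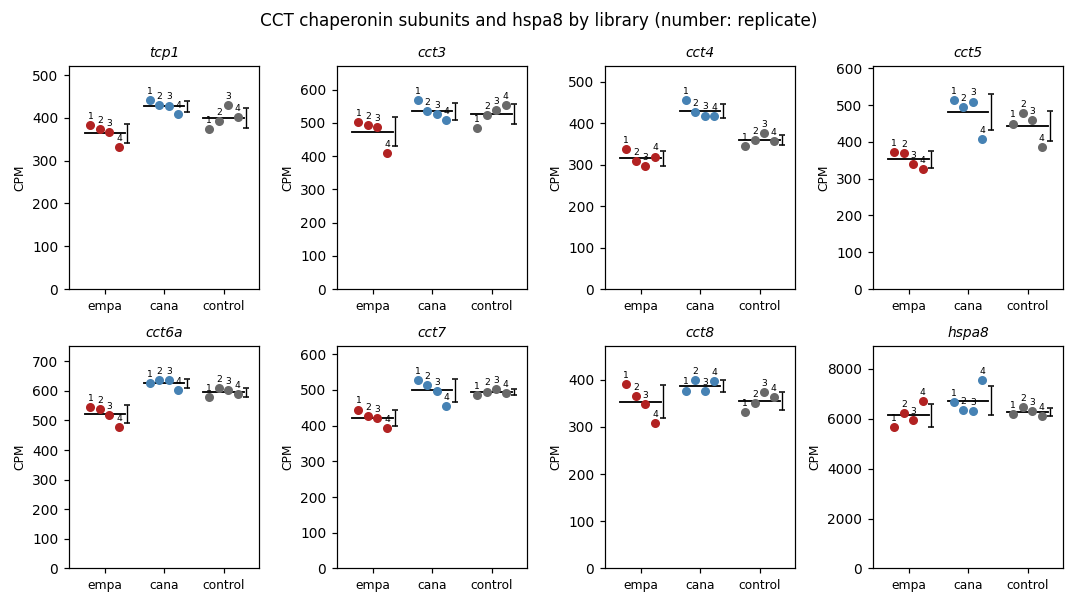
CPM of the 7 CCT subunits and of hspa8 in each library, for empagliflozin (empa), canagliflozin (cana) and control, with replicate numbers; lines are means and bars are SD over 4 libraries, and axes start at 0. Empagliflozin points lie below all canagliflozin points in tcp1 and in cct3 to cct7, and canagliflozin 4 and control 4 are the lowest cct5 points of their groups.

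The chaperonin's partners and clients were tested as well. Of 21 tested genes of prefoldin, tubulin cofactors, phosducin-like proteins and clients, 1 rose and 1 fell in empagliflozin against control, or 9.52%, beside 13.3% of all genes. The riser was the client tubb5, a beta-tubulin, with 802, 748, 682 and 688 CPM in empagliflozin, 454, 452, 497 and 615 CPM in canagliflozin, and 504, 519, 446 and 654 CPM in control. It rose by 0.47 against control (adjusted p = 0.0211), with the highest value of each other group in canagliflozin 4 and control 4. The tubulin cofactor tbcb fell by 0.38 (adjusted p = 0.0405). The tubb5 call against control was lost without empagliflozin 1 or 2 or control 1, 2 or 3 (up to 0.0737), and the tbcb call held without canagliflozin 1, canagliflozin 4 or control 4 and was lost without any of the other 9 libraries (up to 0.121). In empagliflozin against canagliflozin, 1 rose and 3 fell of 21, or 19.0% beside 25.5% of all genes: tubb5 rose by 0.54, the actin genes actb1 and actb2 fell by 0.40 and 0.30, and the prefoldin subunit vbp1 fell by 0.23 (adjusted p 0.00431, 0.00855, 0.0213 and 0.0245). The actb2 call was lost without empagliflozin 1 or 3 (up to 0.066), and the vbp1 call without empagliflozin 2 or 3 or canagliflozin 1, 2 or 3 (up to 0.0863). In canagliflozin against control, 0 of 21 passed in limma, edgeR and DESeq2, and 0 had an unadjusted p under 0.05.

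The subunits of the mitochondrial chaperonin had differences of opposite sign. The larger subunit hspd1, or HSP60, had 206, 187, 189 and 153 CPM in empagliflozin, 247, 237, 244 and 199.7 CPM in canagliflozin, and 221, 206, 230.3 and 213 CPM in control. It fell by 0.33 against canagliflozin (interval -0.52 to -0.14, adjusted p = 0.0139), while its difference of -0.25 against control did not pass (adjusted p = 0.074). The lid subunit hspe1, or HSP10, had 136, 135, 137 and 97.8 CPM in empagliflozin, 105, 91.7, 87.5 and 129 CPM in canagliflozin, and 108, 92.1, 89.7 and 133 CPM in control. Its values in canagliflozin 4 and control 4 lay near the upper 3 empagliflozin libraries, and empagliflozin 4 lay with the lower libraries of the other groups. With all libraries its differences were 0.29 against canagliflozin (adjusted p = 0.14) and 0.26 against control (adjusted p = 0.219), and neither passed.

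Without canagliflozin 4 and control 4, both subunits passed in both comparisons with opposite signs. These libraries held the highest hspe1 values of their groups, so the hspe1 differences had to grow without them. In these fits hspe1 differed by 0.41 against canagliflozin (adjusted p = 0.00837) and by 0.37 against control (adjusted p = 0.0157). In the same fits hspd1 differed by -0.40 against canagliflozin (adjusted p = 0.00112) and by -0.26 against control (adjusted p = 0.0214). The ratio of hspe1 CPM to hspd1 CPM was 0.661, 0.722, 0.722 and 0.638 in empagliflozin, 0.424, 0.388, 0.359 and 0.646 in canagliflozin, and 0.490, 0.446, 0.389 and 0.626 in control. This ratio was chosen after the values had been seen and is given without a test. The 2 genes are direct neighbours in RefSeq, and whether strand was used in counting is not given in the sources used here.

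**Figure D3:**
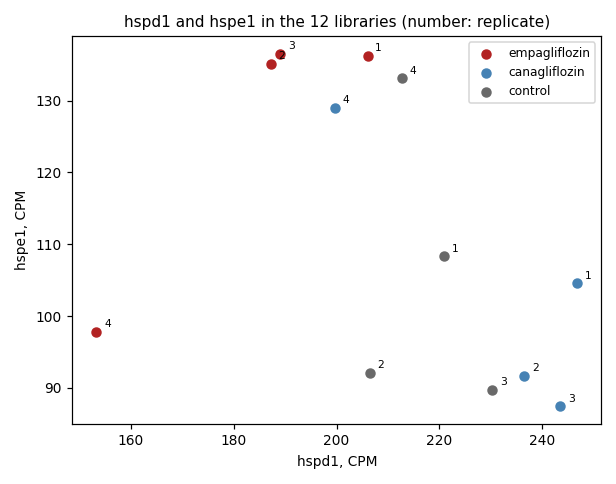
CPM of hspe1 against CPM of hspd1 in the 12 libraries, coloured by group and numbered by replicate; neither axis starts at 0. Empagliflozin 1, 2 and 3 lie at the top near canagliflozin 4 and control 4. The other canagliflozin and control libraries lie lower and mostly to the right, but control 2 lies almost straight below empagliflozin 1. Empagliflozin 4 is low in both genes.

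Of the other mitochondrial chaperones, dnaja3a fell in empagliflozin against control. This J-domain partner had 37.1, 33.1, 31.7 and 32.9 CPM in empagliflozin, 36.4, 37.6, 38.7 and 35.0 CPM in canagliflozin, and 41.1, 38.3, 38.0 and 40.4 CPM in control. The fall was 0.22 on the log2 scale (adjusted p = 0.0453), with no overlap, and dnaja3a did not pass against canagliflozin (-0.13, adjusted p = 0.175). Leaving out any of 9 libraries ended that call (adjusted p 0.0561 to 0.115); only without empagliflozin 1, canagliflozin 4 or control 4 did it hold. It was also lost in the fit on empagliflozin and control alone and without a variance trend. The mitochondrial J-domain genes dnajc15 and dnajc19 went the other way and did not pass. In dnajc15, empagliflozin had 19.9 to 22.6 CPM, canagliflozin 18.4 to 23.1 CPM and control 17.5 to 19.8 CPM. Means of dnajc19 were 17.6 CPM in empagliflozin, 15.7 CPM in canagliflozin and 15.2 CPM in control. The mitochondrial HSP70, hspa9, averaged 284 ± 23.4 CPM in empagliflozin, 317 ± 25.2 CPM in canagliflozin and 321 ± 18.8 CPM in control (SD, n = 4 each), with an adjusted p of 0.119 against control. Without control 4 and canagliflozin 4 its differences were -0.21 against control and -0.22 against canagliflozin (adjusted p 0.0244 and 0.0189). Its exchange factor grpel1 averaged 32.1 ± 3.42 CPM in empagliflozin, 41.7 ± 3.14 CPM in canagliflozin and 39.9 ± 2.57 CPM in control. It fell by 0.37 against canagliflozin (adjusted p = 0.00654) and by 0.31 against control (adjusted p = 0.0316, and up to 0.0908 without any of empagliflozin 2, 3 and 4 or control 1, 2 and 3, each of which ended the call). The mitochondrial HSP90, trap1, averaged 48.7 ± 3.20 CPM in empagliflozin, 67.5 ± 4.25 CPM in canagliflozin and 57.0 ± 4.21 CPM in control. It fell by 0.46 against canagliflozin (adjusted p = 0.000873), and against control its difference was -0.22 (adjusted p = 0.0596). A second exchange factor gene, grpel2, went the other way, with a rise of 0.32 against canagliflozin (adjusted p = 0.017), lost without empagliflozin 1 or 3 or canagliflozin 1 or 3 (up to 0.0541). These partners come from lists that were chosen with earlier results of these data known.

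Among the HSP70, HSP90 and HSP110 genes, hspa14 alone passed in limma with all 12 libraries. The constitutive HSP70 gene hspa8 had 5651, 6239.6, 5936 and 6707 CPM in empagliflozin, 6675, 6343, 6299 and 7560.0 CPM in canagliflozin, and 6178, 6461, 6309.5 and 6105 CPM in control. All groups overlapped, and the difference of empagliflozin from canagliflozin was -0.13 (interval -0.33 to 0.07). The constitutive HSP90 gene hsp90ab1 had 5583, 5907, 5895 and 5827 CPM in empagliflozin, 6749, 6502, 6389 and 6337 CPM in canagliflozin, and 6123, 6294, 6338 and 5843 CPM in control. Every empagliflozin library lay below every canagliflozin library, yet the difference of -0.16 (interval -0.34 to 0.01) had an adjusted p of 0.157 in limma. DESeq2 called it (adjusted p = 0.00356). Of a library's reads over the 14134 genes, all 75 chaperone genes made up 1.88% to 1.97% in empagliflozin, 2.03% to 2.08% in canagliflozin and 1.998% to 2.07% in control. The empagliflozin shares lay below those of both other groups. Of a summed mean of 19168 CPM in empagliflozin, hspa8 held 6133 CPM and hsp90ab1 5803 CPM, and neither passed in limma. Summed J-domain genes went the other way, with overlap. They averaged 1883 CPM in empagliflozin, 1721 CPM in canagliflozin and 1782 CPM in control.

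The other HSP90 genes overlapped between all groups. For hsp90aa1.1, which serves myosin folding in zebrafish muscle, empagliflozin averaged 386 ± 78.5 CPM, canagliflozin 418 ± 33.8 CPM and control 442 ± 51.0 CPM. Its tandem neighbour hsp90aa1.2 averaged 105 ± 9.29 CPM in empagliflozin, 121 ± 9.76 CPM in canagliflozin and 118 ± 20.1 CPM in control. Reads of such close copies may be split between them by the authors' counting. The intervals for empagliflozin against canagliflozin were -0.39 to 0.12 for hsp90aa1.1 and -0.43 to 0.02 for hsp90aa1.2. The HSP110 genes hspa4a and hspa4b, whose products exchange nucleotide on HSP70, differed by -0.10 and 0.00 between empagliflozin and canagliflozin (intervals -0.26 to 0.07 and -0.16 to 0.16). Without control 4 and canagliflozin 4, hspa4a passed in empagliflozin against control (-0.20, adjusted p = 0.0469).

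The gene hspa14 encodes an HSP70 that sits at the ribosome in human cells with the J-domain protein DNAJC2, and the fish genes of this pair differed in direction. In hspa14, empagliflozin had 53.3, 50.6, 48.8 and 50.1 CPM, canagliflozin 64.8, 61.7, 64.8 and 58.3 CPM, and control 54.2, 53.1, 55.9 and 61.3 CPM. It fell by 0.29 against canagliflozin (adjusted p = 0.00587), with no overlap, and passed in all 25 alternatives. In dnajc2, empagliflozin had 61.2, 58.3, 55.4 and 48.4 CPM, canagliflozin 39.6, 37.4, 42.0 and 51.0 CPM, and control 40.5, 37.9, 46.0 and 57.9 CPM. It rose by 0.39 against canagliflozin (adjusted p = 0.0304), with overlap through empagliflozin 4 and canagliflozin 4. That call was lost without any of empagliflozin 1, 2 and 3 or canagliflozin 1, 2 and 3 (adjusted p 0.0634 to 0.0928). Against control, empagliflozin differed by -0.14 in hspa14 and by 0.30 in dnajc2 (adjusted p 0.153 and 0.108). Without control 4 and canagliflozin 4, the dnajc2 difference from control was 0.42 (adjusted p = 0.00164).

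Heat-inducible HSP70 transcripts passed in no comparison. The gene hsp70.1 had 54.3, 39.4, 36.2 and 37.3 CPM in empagliflozin, 43.3, 34.5, 45.0 and 33.7 CPM in canagliflozin, and 38.1, 43.2, 82.8 and 44.4 CPM in control. Its neighbours in RefSeq are the close copies hsp70.2 and hsp70.3. The rule found neither by name, so how their reads were counted is uncertain. The gene hsp70l, the source of the heat shock promoter used in zebrafish transgenes, had 11.1, 8.78, 7.24 and 6.02 CPM in empagliflozin, 12.5, 9.56, 10.7 and 6.81 CPM in canagliflozin, and 6.08, 9.17, 30.1 and 6.80 CPM in control. Control 3 was the highest library in both genes and the other libraries overlapped across groups. For empagliflozin against control the intervals were -0.67 to 0.15 for hsp70.1 and -1.07 to 0.40 for hsp70l. For canagliflozin against control they were -0.76 to 0.07 and -0.84 to 0.63. Over the 25 alternatives, the hsp70l difference from control ran from -0.66 to 0.14 in empagliflozin and from -0.40 to 0.37 in canagliflozin. For hsp70.1 the differences from control ran from -0.39 to -0.02 and from -0.47 to -0.10.

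Control 3 also held high values of other genes. It was the highest control library in the small heat shock genes hspb9 and hspb11 (27.1 and 13.1 CPM) and in dnajb1b (71.4 CPM). The matrix metalloproteinase gene mmp9 stood at 92.0 CPM in control 3, and at 7.89 to 13.7 CPM in the other controls. It was also high in empagliflozin 3 (51.5 CPM) and in canagliflozin 1 and 2 (67.2 and 52.3 CPM), and at 4.87 to 12.1 CPM in the other treated libraries. Of these, canagliflozin 1 and 2 were the highest of their group in hspb9 and hspb11, and empagliflozin 3 was the highest of its group in hspb11. Other values went the other way. In hspb9, empagliflozin 3 (8.50 CPM) lay below empagliflozin 1 (8.97 CPM). In hsp70.1, empagliflozin 3 was the lowest of its group (36.2 CPM), and canagliflozin 2 (34.5 CPM) lay below canagliflozin 1 and 3. Whether the mmp9 levels bear on the heat shock results was not tested.

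The small heat shock genes held the largest differences among the chaperones. The gene hspb9 had 8.97, 7.08, 8.50 and 6.02 CPM in empagliflozin, 18.7, 20.5, 10.3 and 9.07 CPM in canagliflozin, and 11.6, 10.1, 27.1 and 15.9 CPM in control. Empagliflozin lay below every library of the other groups, and the spread within canagliflozin and control was wide. It fell by 0.91 against control (interval -1.48 to -0.33, adjusted p = 0.0402) and by 0.79 against canagliflozin (interval -1.37 to -0.21, adjusted p = 0.0432). Without control 3 the difference from control was -0.64 (adjusted p = 0.123). Any of the 4 empagliflozin libraries or control 1 or 2 also decided that call (adjusted p 0.0507 to 0.102 without any of them). Against canagliflozin, the call was lost without any empagliflozin library (adjusted p 0.0573 to 0.111) and without canagliflozin 1 or 2 (0.131 and 0.135). Both calls were also lost with no minimum on CPM and without a variance trend, and the call against canagliflozin with a pseudocount of 5. The gene hspb11, chosen for mention after its values were seen, had 4.77 to 6.72 CPM in empagliflozin, 6.31 to 11.6 CPM in canagliflozin and 6.13 to 13.1 CPM in control. Its differences of -0.64 against control and -0.56 against canagliflozin did not pass (adjusted p 0.0559 and 0.066).

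Of the small heat shock genes known from muscle, the called genes hspb7 and hspb6 differed in direction between the compounds. The gene hspb7, active in heart and skeletal muscle, had 9.01, 9.41, 10.7 and 12.8 CPM in empagliflozin, 14.4, 14.9, 14.3 and 14.1 CPM in canagliflozin, and 13.4, 11.8, 13.4 and 10.2 CPM in control. It fell by 0.44 in empagliflozin against canagliflozin (adjusted p = 0.0107), with no overlap, and passed in all 25 alternatives. The gene hspb6, or HSP20, had 2.29, 2.33, 2.78 and 2.26 CPM in empagliflozin, 1.08, 1.24, 0.944 and 1.73 CPM in canagliflozin, and 1.46, 1.80, 1.29 and 3.42 CPM in control. It rose by 0.61 against canagliflozin (adjusted p = 0.0224), and control 4 was the highest library of all. That call was lost without empagliflozin 3, canagliflozin 1 or canagliflozin 3 (adjusted p 0.0616 to 0.0674). The control mean lay between, at 12.2 CPM in hspb7 (10.5 in empagliflozin, 14.4 in canagliflozin) and 1.99 CPM in hspb6 (2.41 and 1.25). Neither gene passed against control in either compound. Muscle marker transcripts, 32 in the table and none at 0 in every library, summed to 37157 to 50919 CPM in empagliflozin, 39618 to 43861 CPM in canagliflozin and 39426 to 47565 CPM in control. Of 31 tested, 3 rose and 3 fell in empagliflozin against canagliflozin, or 19.4% beside 25.5% of all genes. Log2 differences of the 31 ran from -0.54 to 0.83. The heart gene myl7 was 1 of the 3 that fell, by 0.42 (adjusted p = 0.00114). The other called markers were tnnt3a, tnnt3b, desma, myog and tpma. The calls of myl7, tnnt3a and tnnt3b held without any single library, and those of desma, myog and tpma did not. In empagliflozin against control, 1 of the 31 rose and 1 fell, or 6.45% beside 13.3% of all genes. These were myl7, lost without control 3 (0.0553), and tnnt3b, lost without any of 10 libraries (up to 0.144). The part of these markers in the hspb6 and hspb7 results was not tested.

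Of the abundant small heat shock genes, hspb1 showed the libraries that stand apart and hspb8 passed in no comparison. The gene hspb1, or HSP27, had 289, 229, 215 and 239 CPM in empagliflozin, 173, 164, 159 and 325 CPM in canagliflozin, and 174, 163, 157 and 274 CPM in control. Canagliflozin 4 lay above every empagliflozin library and control 4 lay within the empagliflozin range. With these 2 libraries hspb1 did not pass against canagliflozin or control (adjusted p 0.291 and 0.225). Both held the highest values of their groups, so the difference had to grow without them. It was then 0.55 in each of these comparisons (adjusted p 0.000135 against canagliflozin and 0.000162 against control). The gene hspb8, a partner of the cochaperone BAG3 in mammals, averaged 74.8 ± 6.24 CPM in empagliflozin, 77.3 ± 5.85 CPM in canagliflozin and 81.3 ± 8.57 CPM in control (SD, n = 4 each), and the groups overlapped.

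**Figure D4:**
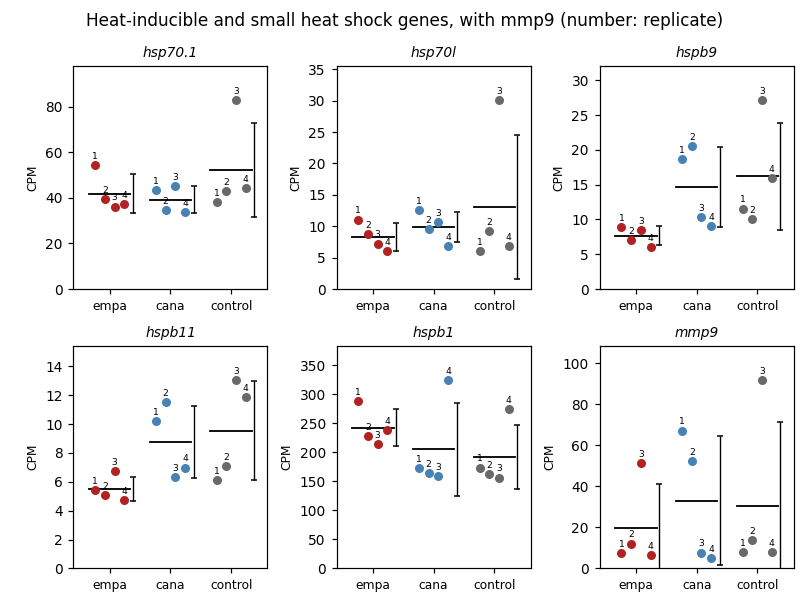
CPM of hsp70.1, hsp70l, hspb9, hspb11, hspb1 and mmp9 in each library, for empagliflozin (empa), canagliflozin (cana) and control, with replicate numbers; lines are means, bars are SD over 4 libraries and axes start at 0, where bars that would go below are cut. Control 3 is the highest control in all panels but hspb1, where canagliflozin 4 (325 CPM) and control 4 (274 CPM) stand above the rest of their groups.

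Of 40 J-domain genes, 9 were called in empagliflozin against canagliflozin, and 7 of these rose. Of all genes, 12.4% were called higher and 13.1% lower there. In type A, dnaja1, a cytosolic HSP70 partner, had 67.9, 64.2, 60.8 and 61.8 CPM in empagliflozin, 47.4, 50.9, 54.8 and 52.7 CPM in canagliflozin, and 49.6, 54.6, 55.9 and 62.1 CPM in control. It rose by 0.30 against canagliflozin (adjusted p = 0.00993), with no overlap, and passed in all 25 alternatives; control 4 overlapped with empagliflozin. The related dnaja2 had 350.2, 358, 328 and 287 CPM in empagliflozin, 259, 270.1, 259 and 308 CPM in canagliflozin, and 264, 267, 263 and 330.1 CPM in control. It rose by 0.27 against canagliflozin (adjusted p = 0.0396), although canagliflozin 4 lay above empagliflozin 4. The dnaja2 call was lost without any of empagliflozin 1, 2 and 3 or canagliflozin 1, 2 and 3 (adjusted p 0.0776 to 0.116), and also with no minimum on CPM and without a variance trend. Its paralog dnaja2l averaged 172 ± 11.8 CPM in empagliflozin, 165 ± 8.61 CPM in canagliflozin and 183 ± 15.0 CPM in control, and did not pass.

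Type B holds dnajb1a and dnajb1b, named after the heat-inducible DNAJB1 of mammals, which went in opposite directions between the compounds. In dnajb1a, empagliflozin had 23.7, 18.8, 21.3 and 20.7 CPM, canagliflozin 16.1, 16.5, 17.9 and 15.8 CPM, and control 20.7, 19.2, 20.6 and 21.8 CPM. Canagliflozin was the group that stood apart, below every other library. The gene rose by 0.33 in empagliflozin against canagliflozin (adjusted p = 0.01), passed in all 25 alternatives, and differed by 0.03 in empagliflozin against control (interval -0.14 to 0.21). In canagliflozin against control the difference was -0.30 (interval -0.47 to -0.12) and its adjusted p was 0.493. In dnajb1b, empagliflozin had 53.9, 53.2, 44.8 and 36.5 CPM, canagliflozin 60.9, 60.4, 60.7 and 55.0 CPM, and control 52.7, 54.5, 71.4 and 60.9 CPM. It fell by 0.34 against canagliflozin (adjusted p = 0.0415), and the call was lost without empagliflozin 3 or 4 or canagliflozin 1, 2 or 3 (adjusted p 0.0883 to 0.121), and also with no minimum and without a variance trend. Against control the difference was -0.35 (adjusted p = 0.0572).

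The remaining called type B genes serve the endoplasmic reticulum. The gene dnajb11, whose product brings clients to the HSP70 of that compartment, had 148, 150.5, 139.7 and 143 CPM in empagliflozin, 103, 111, 114 and 137 CPM in canagliflozin, and 121, 107, 110.4 and 139 CPM in control. Empagliflozin lay above every other library, with canagliflozin 4 and control 4 closest. It rose by 0.33 against canagliflozin (adjusted p = 0.0163; 0.0608 without canagliflozin 1) and by 0.29 against control (adjusted p = 0.0494). Leaving out any empagliflozin library, canagliflozin 2 or 3, or control 1, 2 or 3 ended the call against control (adjusted p 0.0603 to 0.148). So did quantile normalization, median centring, no minimum, no variance trend and edgeR. The membrane protein gene dnajb12a had 29.1, 26.8, 29.9 and 27.6 CPM in empagliflozin, 33.8, 37.2, 33.4 and 31.3 CPM in canagliflozin, and 32.7, 32.4, 33.1 and 33.0 CPM in control. Empagliflozin lay below both groups, and dnajb12a fell by 0.25 against canagliflozin (adjusted p = 0.0169; 0.0556 without empagliflozin 2 and 0.0646 without canagliflozin 2). Against control its difference was -0.20 (adjusted p = 0.0632).

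The large chaperones of that compartment passed in no comparison. Its HSP70, hspa5 or BiP, the partner of dnajb11, averaged 303 ± 30.8 CPM in empagliflozin, 307 ± 32.7 CPM in canagliflozin and 304 ± 44.0 CPM in control (SD, n = 4 each). The hspa5 difference of empagliflozin from control was -0.00 (interval -0.22 to 0.22). Its HSP90, hsp90b1 or GRP94, averaged 296 ± 25.1 CPM in empagliflozin, 298 ± 35.9 CPM in canagliflozin and 299.9 ± 11.6 CPM in control, with an interval of -0.21 to 0.16 for empagliflozin against control. Of 32 tested genes of folding and stress signalling in that compartment, 1 rose and 2 fell in empagliflozin against control (9.38% beside 13.3% of all genes), and 3 rose and 5 fell against canagliflozin (25.0% beside 25.5%). Of the same genes, 0 passed in canagliflozin against control in limma, edgeR and DESeq2. An unadjusted p under 0.05 was found in 2, beside 7.73% of all genes. The stress sensor atf6 rose by 0.44 against control and by 0.47 against canagliflozin (adjusted p 0.015 and 0.00324); without control 2, atf6 missed the threshold against control (0.0532). The collagen chaperone serpinh1b fell by 0.27 and the export factor derl2 by 0.23 against control (adjusted p 0.0229 and 0.0433). The serpinh1b call was lost without empagliflozin 2, 3 or 4 or control 1 or 2 (up to 0.0699), and the derl2 call held only without canagliflozin 4 or control 4 and was lost without any of the other 10 libraries (up to 0.12). Against canagliflozin, the oxidase ero1a fell by 0.56 and the secreted factor cdnf rose by 0.49 (adjusted p 0.00864 and 0.0121).

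In type C, 3 of 22 genes passed, all higher in empagliflozin against canagliflozin, beside 12.4% of all genes higher and 13.1% lower. They were dnajc2, given with hspa14, dnajc25 and dnajc27. The gene dnajc25 had 22.9, 22.6, 19.3 and 19.6 CPM in empagliflozin, 17.3, 14.3, 17.4 and 15.1 CPM in canagliflozin, and 17.6, 18.6, 16.1 and 21.6 CPM in control. It rose by 0.37 (adjusted p = 0.0148; 0.051 without canagliflozin 2). The gene dnajc27, which joins a J domain to a small GTPase, had 7.41, 6.55, 7.24 and 5.72 CPM in empagliflozin, 4.62, 5.22, 4.82 and 5.18 CPM in canagliflozin, and 6.08, 5.11, 5.27 and 6.17 CPM in control. It rose by 0.37 (adjusted p = 0.0169; 0.0515 to 0.0543 without empagliflozin 1, empagliflozin 3 or canagliflozin 1). In both genes empagliflozin lay above all canagliflozin libraries and overlapped with control.

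The calls of dnajc7 and dnajc8 changed when control 4 and canagliflozin 4 were left out. In empagliflozin against control, dnajc7 was called in 3 and dnajc8 in 5 of the 25 alternatives. Against canagliflozin, each was called in 2. The gene dnajc7, whose product links HSP70 and HSP90, had 167, 164, 159 and 162 CPM in empagliflozin, 127, 129.9, 135 and 181 CPM in canagliflozin, and 130.3, 130.0, 134 and 166 CPM in control. The spliceosome-associated dnajc8 had 140.0, 147, 136 and 119.6 CPM in empagliflozin, 97.0, 94.2, 99.6 and 149 CPM in canagliflozin, and 83.8, 101, 98.6 and 136 CPM in control. In both genes canagliflozin 4 lay above every empagliflozin library and control 4 lay within the empagliflozin range. With these libraries, neither gene passed (adjusted p 0.163 and 0.116 against canagliflozin, 0.152 and 0.0863 against control). Without them, which enlarges the differences by construction, dnajc7 was higher by 0.32 against canagliflozin and by 0.31 against control (adjusted p 0.000139 and 0.000234), and dnajc8 by 0.47 and 0.51 (adjusted p 0.000222 and 0.000157).

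**Figure D5:**
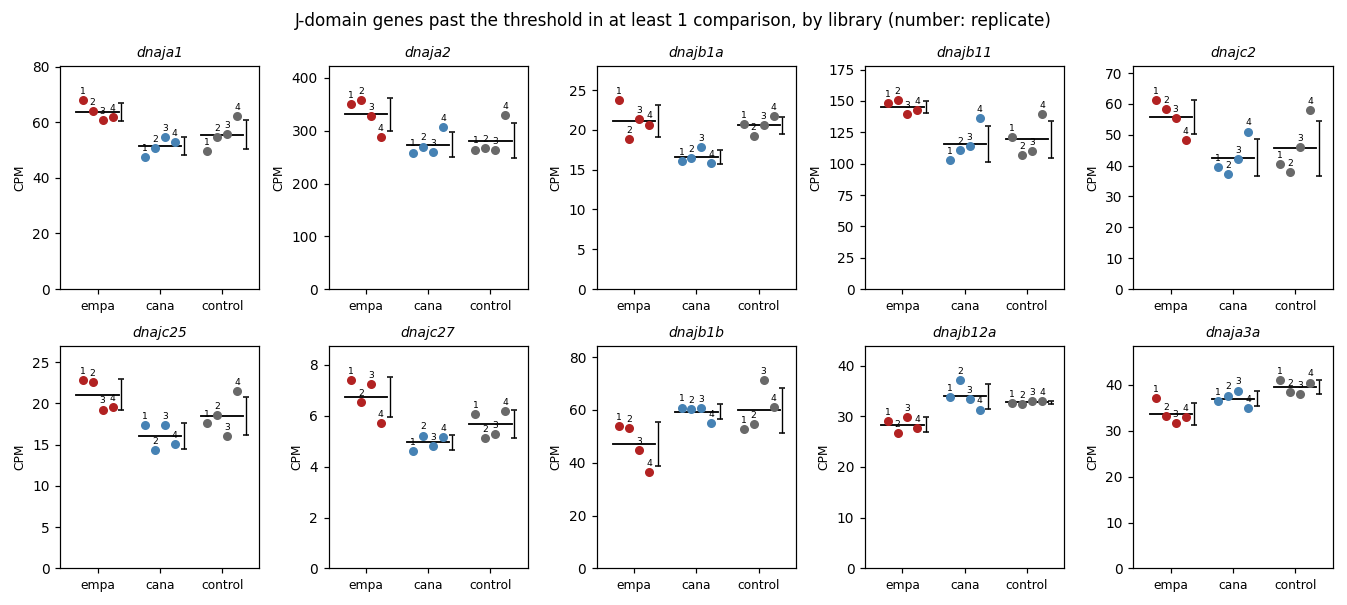
CPM of the 10 J-domain genes past the threshold in at least 1 comparison, in each library, for empagliflozin (empa), canagliflozin (cana) and control, with replicate numbers; lines are means, bars are SD over 4 libraries and axes start at 0. Control 4 is the highest control in the 7 genes that rose, and canagliflozin is the lowest group in dnajb1a.

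Canagliflozin against control gave no call among chaperones in limma or edgeR. DESeq2 called cct4 (adjusted p = 0.0158), beside 0.201% of all genes. In limma the half-width of the 95% interval had a median of 0.21 over the 74 genes. The 6 with an unadjusted p under 0.05 were cct4, dnajb1a, dnajb5, hspa14, dnajb13 and hspbp1 (unadjusted p 0.000804, 0.00254, 0.0304, 0.0364, 0.0436 and 0.0493). Their log2 differences were 0.26, -0.30, -0.42, 0.15, 0.31 and -0.21, and the smallest adjusted p was 0.487. All 7 CCT means were higher than in control, with a median of 0.10, and the libraries of cct4 and cct8 did not overlap. The HSP40-type gene dnajb5 had 2.70 to 5.52 CPM in canagliflozin and 5.02 to 7.38 CPM in control. The gene dnajb13, a radial spoke protein of cilia and flagella in mammals, had 1.19 to 1.55 CPM in canagliflozin and 0.643 to 1.38 CPM in control. Of 16 ciliated cell markers tested, 0 passed in this comparison in limma, edgeR and DESeq2 and 0 had an unadjusted p under 0.05, and the 17 in the table, none at 0 in every library, summed to 136 to 146 CPM in canagliflozin and 145 to 151 CPM in control; their part in dnajb13 was not tested. The HSP70 exchange factor gene hspbp1 averaged 17.3 ± 1.12 CPM in empagliflozin, 17.8 ± 2.23 CPM in canagliflozin and 20.8 ± 2.04 CPM in control.

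Among 27 tested HSP90 cochaperones and heat shock factors, 0 rose and 1 fell in empagliflozin against control (3.70% beside 13.3% of all genes), and 2 rose and 4 fell against canagliflozin (22.2% beside 25.5%). The count against control depended on the method. In empagliflozin against control, edgeR called 1 of the 27, beside 12.4% of all genes, and DESeq2 called 4, beside 17.3%. The phosphatase ppp5c, which works on HSP90 and its clients, averaged 86.8 ± 2.24 CPM in empagliflozin, 116 ± 3.44 CPM in canagliflozin and 107 ± 9.66 CPM in control. It fell by 0.41 against canagliflozin (adjusted p = 0.00105) and by 0.30 against control (adjusted p = 0.0164; up to 0.063 without empagliflozin 2, control 2 or control 3, which ended that call). The immunophilin fkbp8 fell by 0.36, the myosin chaperone unc45a fell by 0.42 and the HSP90 cochaperone chordc1b rose by 0.29 against canagliflozin (adjusted p 0.00594, 0.0298 and 0.0213). The unc45a call was lost without empagliflozin 3 or 4 or canagliflozin 1, 2 or 3 (up to 0.102), and the chordc1b call without empagliflozin 2 or 3 or canagliflozin 3 (up to 0.0699). The heat shock factor gene hsf1 had 49.4, 51.4, 52.0 and 56.6 CPM in empagliflozin, 39.6, 46.8, 43.6 and 45.8 CPM in canagliflozin, and 39.6, 40.0, 44.1 and 50.5 CPM in control. It rose by 0.25 against canagliflozin (adjusted p = 0.0424; up to 0.136 without any library of empagliflozin or canagliflozin 1, 2 or 3, which ended the call), and its difference of 0.26 against control had an adjusted p of 0.0503. Among 17 tested HSP70 partners, 0 rose and 1 fell against control (5.88% beside 13.3%), and 2 rose and 1 fell against canagliflozin (17.6% beside 25.5%). They were grpel1 in both comparisons, and grpel2 and bag2, which rose against canagliflozin by 0.32 and 0.29 (adjusted p 0.017 and 0.0146); without empagliflozin 1, both missed the threshold (bag2 at 0.0501). In canagliflozin against control, 0 of these 27 and 0 of these 17 passed in limma, edgeR and DESeq2. An unadjusted p under 0.05 was found in 3 and 2 of them, beside 7.73% of all genes.

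In the authors' deposited tables, 4 chaperone genes had a false discovery rate under 0.05 in empagliflozin against control, beside 15.9% of all genes there. These were hspb9, hspb11, cct5 and cct7 (rates 0.0141, 0.0315, 0.0331 and 0.0432 in the authors' deposited table), and 3 of them were called here. For empagliflozin against canagliflozin, the authors' deposited table gave 9, beside 15.6% of all genes, and 8 of these were called here. The authors' deposited table gave 0 chaperone genes for canagliflozin against control, beside 0.0251% of all genes.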

How the data were processed

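The deposited signal is CPM scaled by TMM factors: 100% of values were whole reads within 0.001 reads once scaled back. Per the submitters' processing notes, FastQC, R 3.6.1 and the danRer10 build were used; no source used here gives the aligner or the gene counter. The authors' deposited comparison tables hold p-values with false discovery rates, and log2 fold changes. Per the labels' protocols, libraries came from a stranded mRNA kit and were read as 50 bp pairs.

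A single read was worth 0.0363 to 0.0621 CPM. The limit for an unseen gene, 3 reads, was 0.109 to 0.186 CPM and covers counting error only. Genes with a mean of at least 1 CPM were compared with limma 3.58.1 (R 4.3.3; eBayes with trend) on log2(CPM + 1), 3 groups in 1 fit, two-sided, with Benjamini-Hochberg adjustment over 11964 genes. The fit was tested on simulated data. Chaperone genes and 8 gene lists were chosen with earlier results of these data known. Lists are described by counts, with no list test; lens markers are in the closing section. Named genes were those called, up to 12 in each direction; the 6 with the smallest unadjusted p where fewer than 5 were called; classical heat shock genes and CCT subunits; and the 2 family members with the highest and lowest means. Not every gene of the rule is reported here. No sequences were used. Alternatives were 25 settings, including edgeR 4.0.16 and DESeq2 1.42.0 on the recovered reads.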

Additional observations from a re-analysis of the deposited data

Results flagged for a closer look

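Among 50 named chaperone genes, 150 groups of 4 libraries were examined for a library far from the other 3 of its group (Dixon's test at 95%), and 13 were found in 11 genes, while chance gives about 1 in 20 groups. Canagliflozin 4 held 5 of them, control 4 held 3, and control 3 and empagliflozin 4 held 2 each.

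In canagliflozin 4, hspb1 (325 CPM), dnajc7 (181 CPM) and dnajc8 (149 CPM) were above the other canagliflozin libraries, and dnajb1b (55.0 CPM) and cct5 (408 CPM) were below them. In control 4, hspb1 (274 CPM), dnajc7 (166 CPM) and dnaja2 (330.1 CPM) were above the other controls. In control 3, hsp70.1 (82.8 CPM) and hsp70l (30.1 CPM) were above the other controls. In empagliflozin 4, hspe1 (97.8 CPM) and cct3 (409.8 CPM) were below the other empagliflozin libraries. In empagliflozin 3, hspb6 (2.78 CPM) was above the others of its group.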

How the results depend on the processing

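The count of called chaperone genes in empagliflozin against control, 5, or 6.76% beside 13.3% of all genes, was 3 with no minimum on CPM (4% beside 7.82%), 8 when means had to reach 5 CPM (12.3% beside 16.7%), 10 after quantile normalization (13.5% beside 14.3%), 1 with no variance trend (1.35% beside 9.73%), 12 in DESeq2 (16.2% beside 17.3%) and 18 at an adjusted p threshold of 0.1 (24.3% beside 24%); the cause was not tested. Leaving out 1 library gave 0 to 18. The count was 0 without any of empagliflozin 2, 3 and 4 or control 2 and 3, beside 2.24% to 6.44% of all genes. Without control 1 it was 1 (1.35% beside 4.51%), and this gene was not among the 5 called with all libraries. It was 16 without canagliflozin 4 (21.6% beside 22.6%) and 18 without control 4 (24.3% beside 25.4%). Without control 4 and canagliflozin 4 together it was 25 (33.8% beside 35.5%). In empagliflozin against canagliflozin, the count was 19, or 25.7% beside 25.5% of all genes. Over single libraries it ranged from 10 without canagliflozin 1 (13.5% beside 16.1%) to 30 without canagliflozin 4 (40.5% beside 35.4%). Without control 4 and canagliflozin 4 together it was 32 (43.2% beside 40.8%). In canagliflozin against control, 0 was 1 in DESeq2 (cct4, adjusted p = 0.0158, 1.35% beside 0.201% of all genes) and 0 in the other 24 settings.

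Of the 25 settings, all kept the calls of hspa14, hspb7, hspd1, dnaja1, dnajb1a, cct4, cct5 and cct6a in empagliflozin against canagliflozin, 8 of 19 there, and 0 of 5 calls were kept in every setting in empagliflozin against control. No call reversed. Libraries share only a replicate number. The 12 same-numbered pairs had correlations of deviations from -0.12 to 0.59, 2 of them above 0.1. The highest was that of control 4 with canagliflozin 4. Pairs with different numbers ran from -0.39 (canagliflozin 2 with control 4) to 0.33 (canagliflozin 2 with control 3). With the replicate block, the count was 11 in empagliflozin against control (14.9% beside 19.0% of all genes). It was 21 in empagliflozin against canagliflozin (28.4% beside 28.9%) and 0 in canagliflozin against control (0% beside 0%).

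Depth limits genes such as hspb15 and hspb6, at a few CPM or less. Values near the threshold rest on 4 pools per group. No clutch, day or lane is labelled, so a batch behind control 4, canagliflozin 4 or control 3 was not tested.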

Other observations

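Lens markers were also counted, since small heat shock genes include the alpha crystallins of the lens. Of 13 tested, 1 rose and 0 fell in empagliflozin against control, or 7.69% beside 13.3% of all genes. The riser was the transcription factor gene prox1a with 0.32. In empagliflozin against canagliflozin, 7 rose and 1 fell, or 61.5% beside 25.5% of all genes; the aquaporin gene mipb rose by 0.52, the beta crystallin gene cryba4 rose by 0.47 and the transcription factor gene foxe3 fell by 0.61. In canagliflozin against control, 0 of 13 passed in limma, edgeR and DESeq2. An unadjusted p under 0.05 was found in 5, beside 7.73% of all genes. Of the 3 alpha crystallin genes in the table, 1 had a mean of at least 1 CPM, and it passed in no comparison. Summed CPM of the 13 lens markers was 1122 to 1292 in empagliflozin, 888 to 1070 in canagliflozin and 891 to 1242 in control.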
